A study of Mus musculus with 18 samples.

Results

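Regulatory T (Treg) cells from the liver were set against Treg cells from lymph nodes, as 3 libraries of poly(A) RNA from each organ out of the 18 libraries and 6 sites of the series. Both groups came, per the labels, from wild-type mice that had received no treatment, and the cells were CD4-positive, Foxp3-positive T cells that were sorted and used fresh. The labels do not give the age or sex of the mice, the number of animals in a library, the sorting gates, the way each organ was made into a cell suspension, or whether replicates came from separate animals, so p-values measure only the spread between these libraries. The unit was TPM, a level per length of transcript in which every library sums to the same total. The 6 libraries were assigned to the groups by their labels, and 14322 genes that averaged 1 TPM or more in either group were compared.

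Treg cells restrain immune responses and depend on the transcription factor Foxp3 and on interleukin 2, which they sense through a high-affinity receptor. Those in lymph nodes are largely recirculating cells that carry homing receptors such as Ccr7. Those in non-lymphoid organs are known for effector genes, the interleukin 33 receptor ST2 (Il1rl1), repair factors such as amphiregulin (Areg) and tissue-directed chemokine receptors.

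In liver Treg cells the 70 kDa heat shock protein genes, immediate early genes of the Fos, Jun and Nr4a families, effector Treg genes and the cytokine gene Ifng were higher, while Il2ra, Foxp3, Lag3 and a group of genes of resting T cells were lower. The largest difference was at Hspa1a, with a mean of 1495.3 TPM in liver and 2.68 TPM in lymph node. At an adjusted p under 0.05 in limma, 1096 genes were higher in liver (7.65% of those tested) and 2294 were lower (16.0%). Among these calls, 593 higher and 899 lower genes differed by at least 1 log2 unit, and 67 and 22 by at least 3. All differences are on the log2(TPM + 1) scale, liver minus lymph node, which shrinks the fold of weakly expressed genes.

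The split into higher and lower calls depended on the scale. The median difference of all genes tested was -0.22, and higher genes made up 32.3% of the calls. When each library was scaled to 20 general T cell genes, the median moved by 0.27 to 0.05, 1736 genes were higher and 918 lower, and 65.4% of the calls were higher. Under all 3 scalings tried, 1089 genes were called higher and 918 lower, and small negative differences are given below with this in view.

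**Figure D1:**
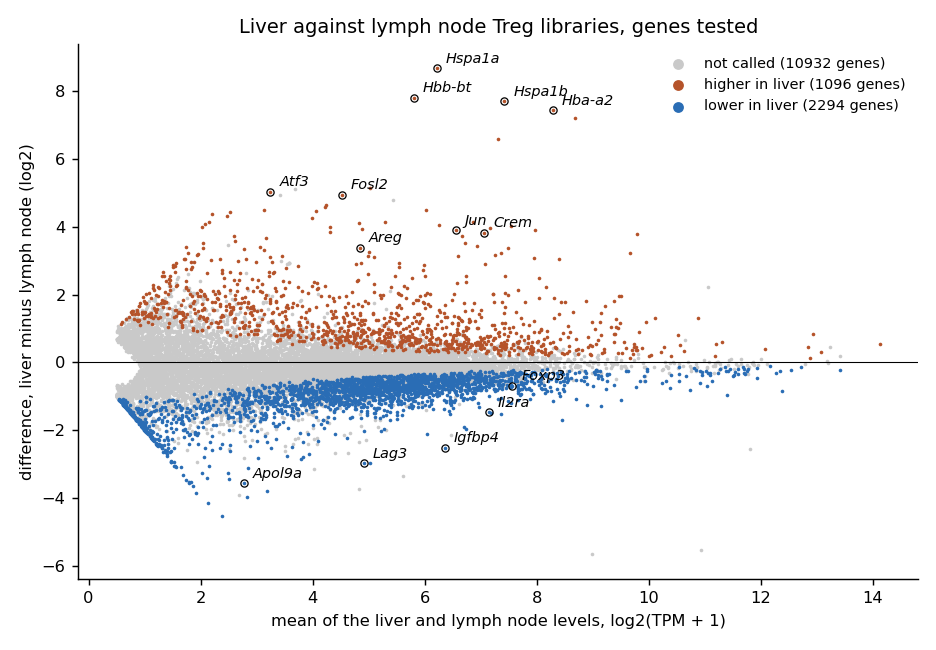
Each point is a gene, placed by the mean of its liver and lymph node levels (horizontal, log2(TPM + 1)) and its difference, liver minus lymph node (vertical, log2). Colours mark the 1096 genes called higher and the 2294 called lower, and Hspa1a at 8.67 stands highest.

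The liver libraries were the shallower ones. For a transcript with 1 kb left after 0.2 kb was taken off its length, 1 read was worth 0.351 to 0.426 TPM in liver. In lymph node it was worth 0.0830 to 0.0996 TPM. Between 14314 and 14408 genes were above 0 in liver, against 18985 to 19297 in lymph node. Over 1219 genes of at least 100 TPM in both groups, replicates varied with a median coefficient of variation of 10.2% in liver and 2.37% in lymph node. A gene listed at 0 in liver may therefore be present at a low level. The median SE of a difference was 0.26, and 0.16 for the 7740 genes with at least 10 TPM in both groups. Leaving out any 1 lymph node library lowered the counts, to between 508 and 519 higher and 623 to 667 lower genes, which left 2 libraries of the more precise group.

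RNA of other cells was measured in the same libraries, and in bulk RNA a change in the number of such cells and a change in RNA per cell cannot be told apart. Haemoglobin genes took 1.09% to 1.19% of the TPM in each liver library. All 5 of the 5 erythroid markers tested were higher in liver, with a summed level of 10931.8 to 11969.4 TPM against 72.76 to 75.46 TPM in lymph node. Of 9 macrophage and Kupffer cell markers tested, out of 11 listed, 6 were higher, and the list summed to 56.85 to 107.3 TPM against 15.49 to 19.54 TPM. All 9 averaged at least 1 TPM in liver, and 2 did in lymph node. The filter thus favoured markers that are high in liver, and the count of 6 is not independent of it. Clec4f, a lectin of Kupffer cells, had 8.08, 11.08 and 6.33 TPM in liver and at most 0.45 TPM in lymph node, whereas Marco was listed at 0 in all 3 liver libraries.

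Of 6 sinusoidal endothelium and stroma markers tested, out of 10 listed, 5 were higher (list sum 141.3 to 172.1 TPM against 100.7 to 109.3 TPM). The same limit holds, since all 6 averaged at least 1 TPM in liver and 2 did in lymph node. Most of the sum was Pecam1, which overlapped (79.25 to 117.13 TPM against 98.14 to 104.75 TPM). Clec4g, a lectin of liver sinusoidal endothelium, had 15.21, 20.6 and 24.51 TPM in liver and was listed at 0 in every lymph node library. Hepatocyte markers summed to 14.37 to 19.71 TPM in liver and 0.19 to 1.44 TPM in lymph node. Albumin (Alb) had 4.38, 5.1 and 6.69 TPM in liver and was listed at 0 in lymph node, and transthyretin (Ttr) was at 0 in all 6 libraries. Neutrophil and monocyte markers reached 116.6 to 306.9 TPM in liver against 19.26 to 58.12 TPM, the highest value in liver replicate 3. The sums for dendritic cells (563.0 to 624.0 TPM against 777.4 to 783.1 TPM), B cells (67.34 to 100.7 TPM against 157.5 to 168.6 TPM) and plasma cells (541.7 to 553.1 TPM against 711.3 to 734.9 TPM) were lower in liver in all 3 libraries. The largest part of the dendritic cell sum was Cd74 (269.34 to 321.34 TPM against 379.65 to 383.04 TPM), and H2-Aa, H2-Ab1, H2-Eb1 and Bst2 made up most of the rest. Itgax, Flt3, Clec9a and Siglech were under 1 TPM in every liver and lymph node library. Of the 6 dendritic cell members tested, 4 were lower, but none was after T cell scaling (median -0.07). Ighm was the largest part of the plasma cell sum (277.84 to 336.11 TPM against 448.82 to 457.61 TPM). Of the 7 plasma cell members tested, 1 was higher and 1 lower, with a median of 0.22. Cytotoxic and natural killer cell markers overlapped, at 65.2 to 102.6 TPM in liver and 82.67 to 92.69 TPM in lymph node. The part that these cells had in the differences below was not tested.

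**Figure D2:**
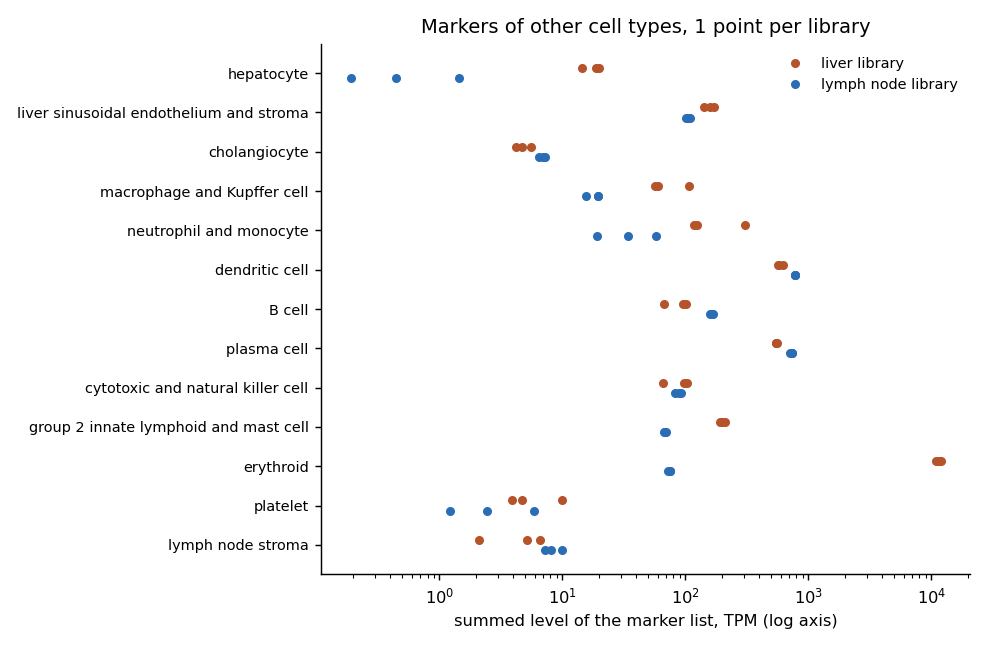
Summed level of each marker list in TPM (horizontal, log axis), with 1 point per library. The erythroid sum in liver (10931.8 to 11969.4 TPM) lies above all other sums, and the hepatocyte sum stays under 20 TPM.

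The defining Treg genes were present in both groups, and most members of the Treg core list were lower in liver. Of 18 members tested, 3 were higher and 11 lower, with a median of -0.56 against -0.22 for all genes. After T cell scaling 5 were higher and 6 lower, and the median was -0.27. Foxp3 had 165.18, 148.3 and 133.66 TPM in liver and 239.12, 236.17 and 240.34 TPM in lymph node (difference -0.68, SE 0.09, adjusted p 0.00393). All liver values lay below all lymph node values, and the difference was -0.39 after T cell scaling (adjusted p 0.0239).

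Il2ra, the alpha chain of the interleukin 2 receptor, showed a larger gap. It had 68.0, 95.92 and 88.99 TPM in liver against 224.93, 237.11 and 239.2 TPM (-1.47, SE 0.13, adjusted p 0.00105). The beta chain gene Il2rb was lower by a smaller amount (-0.71, SE 0.05), with 229.06 to 243.17 TPM against 378.06 to 391.86 TPM. Izumo1r, the folate receptor 4 gene of Treg cells (-1.70), and the receptor gene Gpr83 (-2.02) were also lower. The checkpoint receptor gene Ctla4 went the other way. Its levels were 986.59, 1124.53 and 1081.88 TPM in liver and 347.96, 328.44 and 327.3 TPM in lymph node (1.67, SE 0.06, adjusted p 2.32e-05), with no overlap. Nrp1 (0.58) and Ikzf2 (0.46), the gene of the factor Helios, were the other members called higher, and the call of Ikzf2 was lost without any 1 lymph node library (adjusted p up to 0.0791). Tnfrsf4 (0.08), Tnfrsf18 (-0.22) and Lrrc32 (0.00) were not called. After T cell scaling Tnfrsf4 (0.37, adjusted p 0.0117) and Lrrc32 (0.29, adjusted p 0.0417) were called higher, and Tnfrsf18 was called lower (adjusted p 0.037) in the fit of all 18 libraries. Lrrc32, whose product holds latent TGF-beta on the Treg surface, had 86.11 to 91.14 TPM in liver and 87.97 to 89.52 TPM in lymph node.

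**Figure D3:**
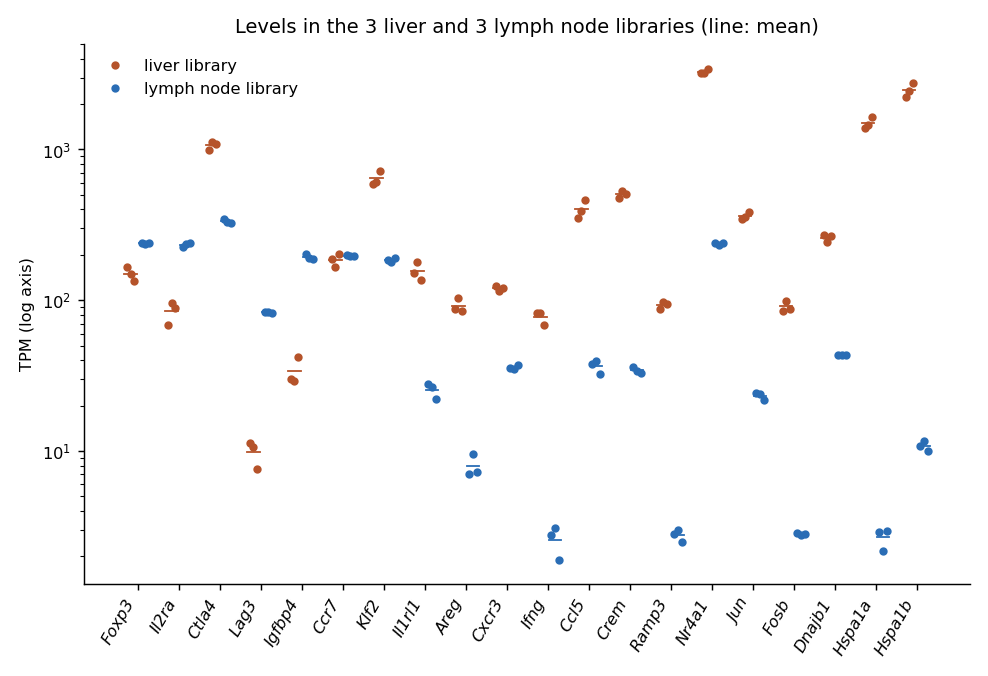
TPM on a log axis in the 3 liver and 3 lymph node libraries for 20 genes of the groups described, with a line at each mean. Foxp3, Il2ra, Lag3 and Igfbp4 lie lower in liver, Ccr7 overlaps, and the other 15 lie higher in liver.

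Genes of resting and recirculating T cells were mostly lower. Of 20 members, 4 were higher and 13 lower, with a median of -0.68, and 4 and 11 after T cell scaling (median -0.40). Igfbp4, which encodes an insulin-like growth factor binding protein, had the list's largest gap, with 29.89, 28.98 and 42.13 TPM against 202.04, 190.08 and 188.69 TPM (-2.51, SE 0.15, adjusted p 0.000203). Every liver value was below every lymph node value. Treml2 (-2.02), Nsg2 (-1.89), Lef1 (-0.81), Satb1 (-0.63) and Tcf7 (-0.55), the last 3 encoding transcription factors of resting T cells, were lower as well.

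Ccr7, the receptor that guides lymphocytes into lymph nodes, was not called. It had 188.6, 166.77 and 203.01 TPM in liver and 198.14, 197.0 and 195.02 TPM in lymph node, a difference of -0.08 (SE 0.08, adjusted p 0.5), and the groups overlapped. The members called higher were Klf2 (1.78), the factor that drives lymphocyte egress genes, the interleukin 7 receptor gene Il7r (1.55), Klf3 (0.90) and S1pr1 (0.43), the egress receptor itself. Klf2 had 594.52, 611.25 and 723.52 TPM in liver and 184.86, 179.63 and 191.78 TPM in lymph node (SE 0.09, adjusted p 7.14e-05). The call of S1pr1 was lost without any 1 lymph node library (adjusted p up to 0.074).

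Effector and tissue Treg genes were mostly higher in liver. Of 30 members, 18 were higher and 3 lower, with a median of 0.91, and 22 and 2 after T cell scaling. Il1rl1 had 151.55, 179.66 and 136.3 TPM in liver and 27.62, 26.74 and 22.08 TPM in lymph node (2.56, SE 0.14, adjusted p 0.000132). Areg had 86.79, 102.86 and 85.17 TPM against 6.98, 9.55 and 7.24 TPM (3.38, SE 0.16, adjusted p 6.65e-05). Neither gene overlapped between the groups.

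The transcription factor genes of the list that were higher were Bhlhe40 (3.72), Pparg (2.95), Rora (2.93), Id2 (2.35) and Gata3 (1.04), while Batf (0.28) and Irf4 (-0.09) were not called. Batf was called higher in 7 of the 17 alternatives, among them T cell scaling (0.57, adjusted p 0.00743). Bhlhe40 had 342.34 to 390.21 TPM in liver and 26.3 to 28.0 TPM in lymph node. Pparg, a gene of low level, had 8.23 to 10.19 TPM in liver against at most 0.56 TPM. Receptor genes called higher included Klrg1 (2.03), Tigit (1.12), Pdcd1 (1.09) and Icos (0.78). Il10, the gene of a suppressive cytokine, had 27.89, 29.74 and 25.0 TPM in liver and 18.7, 19.74 and 23.97 TPM in lymph node, and its difference of 0.39 did not pass (adjusted p 0.105). It was called higher after T cell scaling (0.67, adjusted p 0.0244) and median scaling (0.57, adjusted p 0.0441).

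The members called lower were Lag3, Itgae and Tnfrsf9. Lag3, an inhibitory receptor that binds MHC class II, had 11.26, 10.63 and 7.64 TPM in liver against 83.58, 84.03 and 81.63 TPM in lymph node (-2.97, SE 0.16, adjusted p 0.000118). Itgae, which encodes the integrin chain CD103, had 39.8 to 47.25 TPM against 101.46 to 107.42 TPM (-1.22, SE 0.10, adjusted p 0.00067). The Tnfrsf9 call (-0.72, adjusted p 0.0386) was lost in 10 of the 17 alternatives, among them T cell scaling and each lymph node library left out.

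Receptors that direct T cells into tissues differed in both directions. Of 23 chemokine receptor and integrin genes tested, 14 were higher and 6 lower, with a median of 0.75, and 3 or 4 were lower when any 1 lymph node library was left out. Cxcr4 had 602.76, 597.01 and 532.46 TPM in liver and 52.73, 57.52 and 53.71 TPM in lymph node (3.38, SE 0.08, adjusted p 2.82e-06). Cxcr3, a receptor for interferon-induced chemokines, had 125.14, 114.72 and 119.98 TPM against 35.34, 34.8 and 36.89 TPM (1.72, SE 0.09, adjusted p 7.14e-05). Both were higher in every liver library. Itgb1 (1.78), Cxcr6 (1.75), Gpr15 (1.71), Ccr2 (1.55), Ccr8 (1.23), Itga4 (0.75) and Ccr4 (0.61) were higher too. Ccr9, the receptor for gut homing, was lower, with 3.51 to 5.95 TPM against 18.36 to 18.85 TPM (-1.80, SE 0.21, adjusted p 0.00281). The B cell follicle receptor Cxcr5 (-1.62) and the integrin genes Itgal (-0.78) and Itgb2 (-0.50) were also lower, but the Cxcr5 call was lost without any 1 lymph node library (adjusted p up to 0.0845) and the Itgb2 call after T cell scaling.

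**Figure D4:**
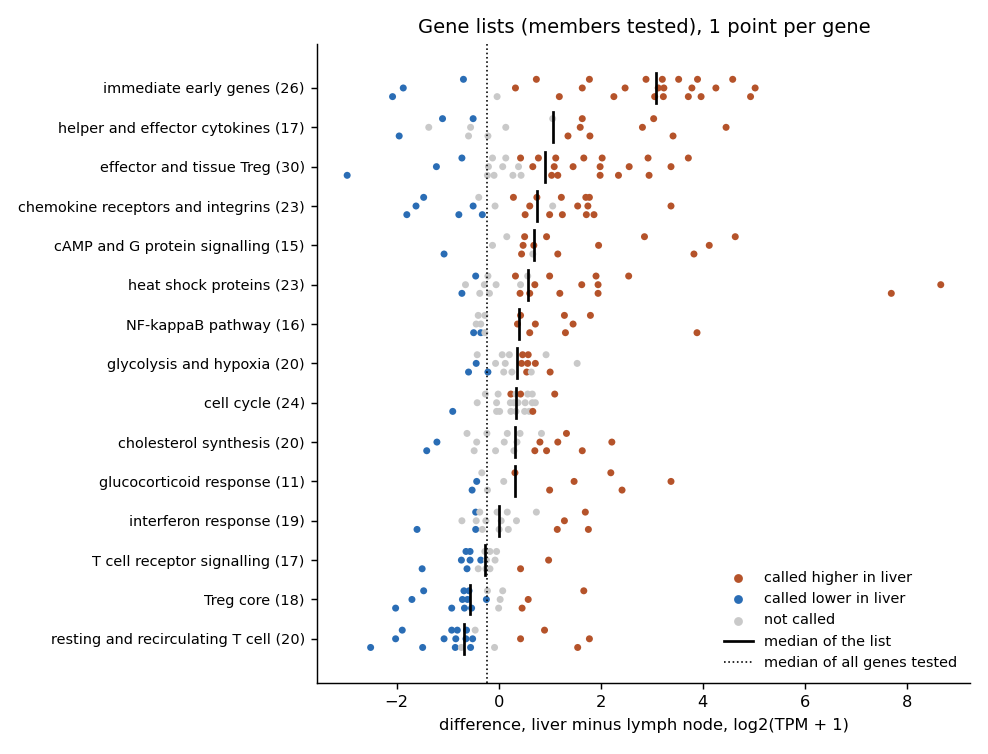
Difference of each list member, liver minus lymph node (horizontal, log2(TPM + 1)), with 1 row per gene list, a bar at the list median and a dotted line at the median of all genes tested (-0.22). Immediate early genes have the highest median (3.09), and resting T cell genes the lowest (-0.68).

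The heat shock gene Hspa1a held the largest difference of the 14322 genes. Their products are chaperones that refold damaged proteins, and the heat shock factor that induces them binds promoter elements built from inverted GAA units. Of 23 members tested, 13 were higher and 2 lower, with a median of 0.57 (0.86 after T cell scaling), and 9 were higher when any 1 lymph node library was left out. Hspa1a (17:34969190-34972156, minus strand, mm10) had 1397.07, 1448.62 and 1640.33 TPM in liver and 2.9, 2.17 and 2.96 TPM in lymph node (8.67, SE 0.12, adjusted p 4.45e-07). Its neighbour Hspa1b had 2223.34, 2444.69 and 2742.9 TPM against 10.85, 11.65 and 9.99 TPM (7.70, SE 0.10, adjusted p 3.49e-07). The genes are near-identical copies that share reads, so their separate levels are uncertain. Each was higher in every liver library by far more than the replicate spread.

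The promoters of both genes are shown, with those of 2 other members of the stress groups picked because they held a match. Matches to the heat shock element GAANNTTC are in capitals (150 bases up to the annotated start, 5′ to 3′ on the gene's strand, RefSeq, GRCm38.p6). The stretches lie at chr17:34972157-34972306 (Hspa1a, minus strand), chr17:34959239-34959388 (Hspa1b, minus strand), chr4:40722318-40722467 (Dnaja1, plus strand, the first of its 3 annotated starts) and chr4:95052223-95052372 (Jun, minus strand).
Hspa1a: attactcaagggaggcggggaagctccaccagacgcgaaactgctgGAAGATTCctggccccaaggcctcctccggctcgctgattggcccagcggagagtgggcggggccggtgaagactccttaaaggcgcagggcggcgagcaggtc
Hspa1b: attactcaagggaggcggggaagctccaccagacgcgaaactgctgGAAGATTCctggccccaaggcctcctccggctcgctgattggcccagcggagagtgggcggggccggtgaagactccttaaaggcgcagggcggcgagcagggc
Dnaja1: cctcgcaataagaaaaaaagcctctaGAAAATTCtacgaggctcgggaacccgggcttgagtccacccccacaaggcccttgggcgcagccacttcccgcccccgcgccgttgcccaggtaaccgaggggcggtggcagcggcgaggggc
Jun: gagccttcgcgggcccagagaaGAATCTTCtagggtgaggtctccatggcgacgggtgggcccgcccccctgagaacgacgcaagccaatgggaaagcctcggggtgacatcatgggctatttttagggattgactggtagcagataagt
The Hspa1a and Hspa1b stretches were identical at 149 of 150 positions. In the 250 bases before the start, 8 of the 19 heat shock members with a RefSeq promoter held GAANNTTC on either strand (42.1%), compared with 7.73% of all 27025 genes in the promoter table and 7.29% of the 782 matched genes called higher in liver. The letters are a palindrome, so a match counts on both strands. Of the 22 immediate early genes with a promoter, 2 held it (9.09%), namely Jun and Fosl2. A match describes the letters only, and the matches included Fkbp4, a member that was lower in liver. Dnaja1 held the element only before the start shown, and Hsph1, a member that was higher in liver, held none.

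Other chaperone genes differed by less than the Hspa1 pair. Dnajb1, an HSP40 partner of HSP70, had 269.88, 241.61 and 264.67 TPM in liver and 43.52, 43.24 and 43.4 TPM in lymph node (2.55, SE 0.08, adjusted p 7.86e-06). Hsp90aa1 (1.95), Hsph1 (1.91), Dnaja1 (1.00) and the constitutive Hspa8 (0.61) were higher as well, without overlap. The Hsph1 levels were 488.1 to 532.21 TPM against 131.81 to 135.57 TPM. The co-chaperone genes Stip1 (-0.72) and Fkbp4 (-0.45) were lower, the latter with a call that was lost after T cell scaling (adjusted p 0.37). Hsf1, the gene of the heat shock factor, did not pass (-0.37, adjusted p 0.0752), with 49.29 to 64.86 TPM in liver and 70.26 to 77.69 TPM in lymph node.

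Immediate early genes, which are transcribed within minutes of a stimulus, were the list with the highest median. Of 26 members, 22 were higher and 3 lower, with a median of 3.09, and 20 or 21 were higher without any 1 lymph node library. Nr4a1, an orphan nuclear receptor induced by antigen receptor signals, had 3227.22, 3197.57 and 3444.3 TPM in liver and 237.98, 233.3 and 238.52 TPM in lymph node (3.79, SE 0.04, adjusted p 2.32e-07). Jun had 344.26, 355.79 and 384.99 TPM against 24.29, 23.79 and 21.63 TPM (3.90, SE 0.09, adjusted p 2.74e-06). Both were higher in all liver libraries, without overlap.

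The AP-1 genes Fosl2 (4.94), Fosb (4.59), Junb (3.23) and Fos (2.89) were all higher. Fosl2 had 111.28 to 146.18 TPM in liver and 3.08 to 3.22 TPM in lymph node, and Fosb 85.24 to 99.42 TPM and 2.78 to 2.86 TPM. The stress factor gene Atf3 (5.03), the nuclear receptor gene Nr4a2 (4.26), Ppp1r15a (3.97), whose product restores translation after stress, Klf6 (3.24) and the phosphatase gene Dusp1 (3.06) were higher by similar amounts. Egr genes did not share this direction. Egr1 was not called (-0.03, adjusted p 0.897), with 33.9, 44.93 and 36.26 TPM in liver and 39.25, 39.13 and 38.2 TPM in lymph node. Egr2 (-1.87) and Egr3 (-2.08) were lower, the latter with 3.78, 6.21 and 7.22 TPM against 27.55, 26.48 and 26.18 TPM. Myc (-0.69) was lower, but its call was lost in 9 of the 17 alternatives.

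Of the 22 immediate early genes with a RefSeq promoter, 3 held the cAMP response element TGACGTCA, which is a palindrome, in the 250 bases before the start, namely Dusp1, Btg2 and Ppp1r15a (13.6%, compared with 1.77% of all promoters and 3.71% of genes called higher). None held the AP-1 site TGANTCA, which 7.82% of all promoters held. None of the 8 cAMP and G protein signalling genes with a promoter held TGACGTCA. Areg, a gene of the effector list, held it and is shown as an example picked after its match was seen. These stretches, at chr17:26508473-26508622 (Dusp1, minus strand), chr7:45526269-45526418 (Ppp1r15a, minus strand) and chr5:91139449-91139598 (Areg, plus strand), show where the element lies, in capitals, before the starts of genes that were higher in liver.
Dusp1: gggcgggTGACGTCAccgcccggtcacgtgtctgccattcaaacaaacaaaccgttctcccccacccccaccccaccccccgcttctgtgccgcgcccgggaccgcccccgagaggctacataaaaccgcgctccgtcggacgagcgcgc
Ppp1r15a: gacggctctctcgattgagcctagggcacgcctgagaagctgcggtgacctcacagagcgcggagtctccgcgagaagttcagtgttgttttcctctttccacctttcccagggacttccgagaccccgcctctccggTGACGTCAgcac
Areg: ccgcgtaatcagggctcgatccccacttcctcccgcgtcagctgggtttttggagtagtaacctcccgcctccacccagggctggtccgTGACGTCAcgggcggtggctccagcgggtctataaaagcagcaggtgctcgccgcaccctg

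Genes of cAMP and G protein signalling were also mostly higher, with 11 of 15 tested members higher and 1 lower (median 0.69), and 6 higher without any 1 lymph node library. Crem, the cAMP-responsive modulator, had 476.19, 528.63 and 503.88 TPM in liver and 36.05, 34.06 and 32.95 TPM in lymph node (3.83, SE 0.08, adjusted p 1.68e-06). Ramp3, which modifies receptors of the calcitonin family, had 86.96, 97.7 and 94.25 TPM against 2.8, 2.99 and 2.49 TPM (4.64, SE 0.14, adjusted p 7.86e-06). The regulators of G protein signalling Rgs2 (4.13), Rgs16 (2.86) and Rgs1 (1.16) were higher, while Rgs10 was lower (-1.07). Rgs16 had 158.36 to 179.67 TPM in liver and 21.54 to 23.54 TPM in lymph node.

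In the NF-kappaB pathway 9 of 16 members were higher and 2 lower (median 0.40). After T cell scaling 9 were higher, none of the 16 was lower, and the median was 0.69. The inhibitors Tnfaip3 (A20) and Nfkbia led the list. Tnfaip3 had 1028.87, 913.57 and 940.35 TPM in liver and 64.61, 64.66 and 62.55 TPM in lymph node (3.89, SE 0.07, adjusted p 6.33e-07), and Nfkbia 828.1 to 927.67 TPM against 243.79 to 258.18 TPM (1.80). Among the subunits, Rel was higher (1.29) and Nfkb1 slightly lower (-0.35), the latter without a call after T cell scaling (adjusted p 0.557).

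Cytokine and chemokine genes separated into groups. Of 17 tested members, 8 were higher and 3 lower (median 1.06, and 0.35 with a pseudocount of 5). Ifng, the gene of interferon gamma, had 81.68, 81.85 and 68.02 TPM in liver and 2.78, 3.07 and 1.9 TPM in lymph node (4.46, SE 0.19, adjusted p 3.81e-05). Ccl5 had 351.67, 392.43 and 460.2 TPM against 37.55, 39.44 and 32.56 TPM (3.42, SE 0.13, adjusted p 2.21e-05). All liver values of both genes exceeded all lymph node values. Il2 (3.04), a low gene with 19.18, 7.08 and 15.95 TPM against 0.56 to 0.96 TPM, Tnf (1.64) and Xcl1 (1.60) were higher as well.

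Tbx21, the gene of the type 1 helper factor T-bet, was looked up after these values were seen and was higher too, with 21.8, 27.81 and 20.57 TPM against 2.92, 2.22 and 3.75 TPM (2.63, SE 0.23, adjusted p 0.000892). Beside these genes, the cytotoxic cell gene Nkg7 was higher (1.35), with 73.61, 84.63 and 42.48 TPM in liver and a call that was lost without any 1 lymph node library (adjusted p up to 0.0811), whereas Cd8a (-2.34) and Cd8b1 (-1.83) were lower. Ncr1, a receptor of natural killer cells, had 1.67, 0.0 and 0.0 TPM in liver. The lymphotoxin genes Lta (-1.95) and Ltb (-1.10) were lower, with 472.04 to 515.89 TPM of Ltb in liver and 1055.61 to 1074.49 TPM in lymph node.

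Further pathways differed less. Of 20 cholesterol synthesis genes, 7 were higher and 2 lower (median 0.33). Insig1, a brake on sterol synthesis, had 73.81, 102.82 and 95.83 TPM in liver and 18.47, 19.38 and 17.62 TPM in lymph node (2.22, SE 0.15, adjusted p 0.000302), and Cyp51 was higher by 1.33. Among 20 glycolysis and hypoxia genes, 7 were higher and 3 lower (median 0.36), with Tpi1 (1.01) and Hif1a (0.72) among the higher. Of 11 glucocorticoid response genes tested, 6 were higher and 2 lower (median 0.32), led apart from Cxcr4 by Sgk1 (2.42), Per1 (2.20) and Tsc22d3 (1.48), which encodes GILZ. Interferon response genes had 4 of 19 members higher and 3 lower (median 0.01), with Usp18 lower (-1.60) and Rsad2 higher (1.76, adjusted p 0.0109, and up to 0.0605 without any 1 lymph node library). The interferon-inducible chemokine gene Cxcl10, which is outside that list, was higher by 3.93 (SE 0.22, adjusted p 0.000131), with 120.97, 112.1 and 105.82 TPM in liver and 8.95, 4.66 and 6.46 TPM in lymph node. Of 24 cell cycle genes, 4 were higher and 1 lower (median 0.34), beside 7.65% and 16.0% of all genes tested. The difference was positive for 18 of the 24, and none was called higher when any 1 lymph node library was left out. Mki67 had 33.72, 31.54 and 32.78 TPM in liver and 25.45, 23.35 and 23.44 TPM in lymph node (0.43, adjusted p 0.0381, and up to 0.157 over the alternatives). After T cell scaling the medians were 0.61 for the cholesterol, glucocorticoid and cell cycle lists, 0.64 for glycolysis and hypoxia and 0.29 for interferon response. The counts of higher and lower genes were then 11 and 2 for cholesterol, 13 and 0 for glycolysis and hypoxia, and 7 and 1 for interferon response. They were 6 and 0 for the glucocorticoid list and 6 and 1 for the cell cycle list. When any 1 lymph node library was left out, 3 or 4 cholesterol genes, 4 glycolysis and hypoxia genes and 2 interferon response genes were called higher.

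Of 17 T cell receptor signalling genes, 2 were higher and 7 lower, beside 7.65% and 16.0% of all genes tested. The list median of -0.27 was close to the -0.22 of all genes tested. After T cell scaling the list median was 0.02, with 2 higher and 4 lower. That scaling sets general T cell genes, whose own median was then 0.04, to a common level, so it is no separate check of this list. When any 1 lymph node library was left out, 4 or 5 members were lower. The phosphatase gene Ptpn6 (-1.50), the kinase genes Lck (-0.73) and Zap70 (-0.64) and the adaptor gene Lat (-0.56) were lower, and the costimulatory receptor gene Cd28 was higher (0.98). Cd28 had 188.5, 250.04 and 203.13 TPM in liver and 107.79, 108.39 and 106.23 TPM in lymph node. Cd4 was not called (-0.24, adjusted p 0.0639).

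The largest differences outside these lists are given for genes that met the naming rule, which is described with the processing and leaves some gene types out. On the higher side they were at the haemoglobin genes Hbb-bt (7.80), Hba-a2 (7.43), Hbb-bs (7.21) and Hba-a1 (6.58) and the inhibitory receptor genes Lilr4b (5.13) and Lilrb4a (4.50). Haemoglobin belongs to erythroid cells, and Hbb-bs had 5182.76, 4922.35 and 4821.87 TPM in liver and 35.64, 34.08 and 28.31 TPM in lymph node. The Lilrb4a and Lilr4b pair, known in myeloid cells and activated lymphocytes, are near-identical, and Lilr4b had 172.13 to 205.75 TPM against 4.11 to 4.93 TPM. Among genes of at least 10 TPM in both groups, Ifrd1 (4.01) was a further gene with a large difference, at 735.68 to 753.41 TPM in liver and 38.15 to 53.24 TPM in lymph node.

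On the lower side, Tmsb15b2 had 21.9, 24.22 and 8.55 TPM in lymph node and was listed at 0 in every liver library, so no fold is given. Its level also varied widely between replicates elsewhere, from 0.0 to 52.43 TPM in lung and from 2.26 to 35.82 TPM in spleen. Next among the genes that met the naming rule came Apol9a (-3.56), Slc5a9 (-3.41), Sccpdh (-3.27), Angptl2 (-3.10), Apol9b (-2.97), Trmt61a (-2.81) and Gata1 (-2.78). Apol9a and Apol9b are close copies that share reads, and Apol9b had 20.21, 9.11 and 5.06 TPM in liver and 76.48, 91.7 and 86.52 TPM in lymph node (SE 0.43, adjusted p 0.00575). Gata1, better known as an erythroid factor, had 3.5 to 5.87 TPM in liver and 35.42 to 36.3 TPM in lymph node. It was thus lower in the libraries with the higher haemoglobin sums. Gsta4 (-2.86), Kcnip2 (-2.75) and AI480526 (-2.71) also ranked here, but their calls were lost without any 1 lymph node library (adjusted p up to 0.0812, 0.075 and 0.106).

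Among genes that met the naming rule with at least 10 TPM in both groups, and apart from those given above, Capn3 (-2.24), Ephx1 (-1.95), Mogs (-1.69), Bicdl1 (-1.66) and Wdr6 (-1.65) had the largest differences on the lower side. Ephx1, which encodes microsomal epoxide hydrolase, had 56.47, 58.64 and 44.24 TPM in liver and 202.66, 209.84 and 209.13 TPM in lymph node (SE 0.12, adjusted p 0.000203). The 3 liver values of all 5 genes were below their 3 lymph node values, which the rule for naming them required. Over all genes tested, every liver library lay above every lymph node library in 14.0% and below in 32.4%.

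To see which of these differences are shared by another pair of non-lymphoid and lymphoid organs, the 3 lung and 3 spleen Treg libraries, none of which is used above, were compared in the same way. This comparison called 2278 of 14611 genes higher in lung (15.6%) and 2712 lower (18.6%). Of the 13253 genes tested in both comparisons, 618 of 1047 genes called higher in liver were also called higher in lung (59.0%), which is 29.4% of the 2099 lung calls. Of 2236 genes called lower in liver, 904 were also called lower in lung (40.4%, and 34.0% of the 2655 lung calls). Opposite calls were found for 57 and 113 genes. Across genes, which are not independent replicates, the 2 sets of differences had a Pearson r of 0.42 and a Spearman rho of 0.40.

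A fit of all 12 libraries tested where the differences themselves differ, and called 6.70% of genes as larger in liver minus lymph node and 10.9% as smaller. It was applied to 31 genes chosen after their values were seen. Heat shock genes had the larger difference in liver. Hspa1a differed by 8.67 in liver and by 3.27 in lung (difference 5.41, SE 0.21, adjusted p 3.52e-08). For Hspa1b the 2 values were 7.70 and 2.31, for Hsph1 1.91 and -0.15, for Dnajb1 2.55 and 1.06, and for Hsp90aa1 1.95 and 0.91. The mean Hspa1a level was 123.5 TPM in lung, 146.4 TPM in bone marrow, 12.02 TPM in spleen and 7.81 TPM in blood, against 1495.3 TPM in liver.

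Cytokine genes and genes of type 1 responses were among those with the larger difference in liver, although no list of such genes was fixed for this comparison. Ifng differed by 4.46 in liver and by 0.18 in lung (difference 4.28, SE 0.46, adjusted p 8.08e-05), with means of 9.43 TPM in lung and 7.71 TPM in spleen. Ccl5 (3.42 and 0.11), Il2 (3.04 and -1.32), Tbx21 (2.63 and -0.37), Tnf (1.64 and -0.20) and Cxcr3 (1.72 and 0.34) had the larger difference in liver too. The mean levels of Il2, Ccl5 and Cxcr3 were higher in spleen than in lymph node, a difference that was not tested. Il2 averaged 14.07 TPM in liver and 0.71 TPM in lymph node, but 5.03 TPM in lung and 13.92 TPM in spleen. Ccl5 averaged 178.6 TPM in lung and 164.5 TPM in spleen, and Cxcr3 106.7 and 84.24 TPM, against 36.52 and 35.68 TPM in lymph node. Jun (3.90 and 0.86), Nr4a1 (3.79 and 1.86) and Fosb (4.59 and 3.11) among immediate early genes, and Rgs16 (2.86 and 0.81), also had the larger difference in liver. The Fosb level itself was not higher in liver, with means of 90.86 TPM in liver, 115.9 TPM in lung, 2.82 TPM in lymph node and 12.57 TPM in spleen. In bone marrow the means were 361.9 TPM for Fosb, 354.1 TPM for Jun and 557.0 TPM for Nr4a1. Liver means of Jun and Nr4a1 were 361.7 and 3289.7 TPM.

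Other genes of the 31 had the larger difference in lung. Ramp3 differed by 7.29 in lung and 4.64 in liver (difference -2.65, SE 0.22, adjusted p 1.33e-05), with a mean of 782.5 TPM in lung. Crem (5.36 in lung and 3.83 in liver), Fosl2 (5.97 and 4.94), Areg (4.35 and 3.38), Il1rl1 (3.87 and 2.56), Ctla4 (2.88 and 1.67), Icos (2.56 and 0.78) and Il10 (2.03 and 0.39) also differed more in lung. Some genes were higher in lung than spleen without being higher in liver than lymph node. These were Lrrc32 (2.53 in lung and 0.00 in liver), Satb1 (2.17 and -0.63), Ccr7 (2.08 and -0.08), Tnfrsf9 (1.88 and -0.72) and Itgae (1.10 and -1.22). The mean of Itgae was 39.3 TPM in lung, just below its liver range given above. Its spleen mean of 17.91 TPM was far below its lymph node range, so its opposite signs reflect the lymphoid sites and not a higher level in lung than in liver. Lag3 (-2.41 in lung and -2.97 in liver, adjusted p of the difference 0.216) and Bhlhe40 (3.29 and 3.72, adjusted p 0.0583) did not pass. All 29 genes that passed kept their call after T cell scaling and without any 1 of the 12 libraries.

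**Figure D5:**
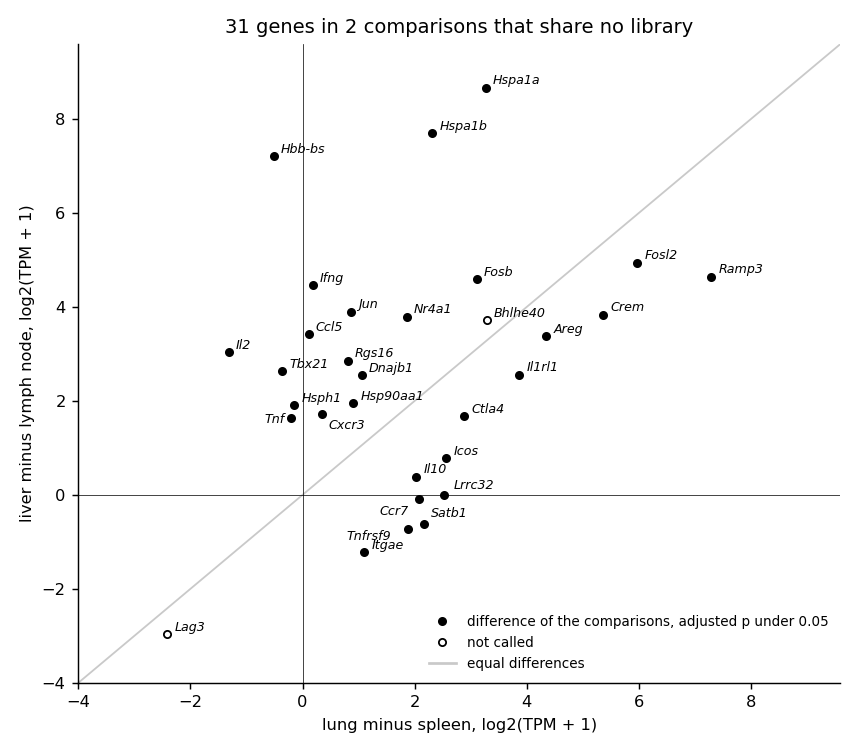
Difference between lung and spleen (horizontal) and between liver and lymph node (vertical) for 31 genes, both on the log2(TPM + 1) scale, with filled points where the fit of 12 libraries called the 2 differences unequal. Hspa1a, Hspa1b, Jun and Ifng lie above the line of equal differences, and Ramp3, Crem and Ccr7 below it.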

How the data were processed

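Poly(A) RNA of 18 mouse Treg libraries was sequenced from directional libraries, per the labels' protocols. STAR, RSEM and the build mm10 are named in the submitters' processing notes, without versions or settings. The authors deposited 1 table of TPM values per library for 55487 gene IDs, of which 55141 matched a symbol in GENCODE M21. TPM keeps no depth, so the TPM worth of 1 read was estimated from steps between low values of 12107 single-transcript genes.

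Here log2(TPM + 1) was compared with limma 3.58.1 (R 4.3.3, eBayes with trend and robust settings, Benjamini-Hochberg adjustment over all genes tested), using only the 6 libraries compared and genes that averaged 1 TPM or more in either group. On simulated data of 13092 genes, 95.6% of changes of 1 log2 unit were recovered, with 8 false calls. Only 90 genes were changed by 1 log2 unit and 110 by 2, all of at least 10 TPM. Both groups had the same dispersion between replicates and no shift of the median. The data differ in each of these respects, so the figures do not give the error rates of this comparison. Genes were named as the 12 largest called differences per direction without overlap, first among genes with 10 TPM or more in the group with the higher level and then among genes with 10 TPM or more in both groups, plus list members with the largest called differences. Left out of this ranking were predicted genes named by number or clone, pseudogenes and IDs without a symbol. Antigen receptor, immunoglobulin, mitochondrial and small RNA genes were left out too. The 15 gene lists, the 13 marker lists, the other genes named and the comparison itself were chosen with earlier results of these data known, and Tbx21 and the 12-library fit were added after the values were seen. Replicate numbers were not used to pair the samples. Alternatives changed the pseudocount, filter, scaling, weights, model and libraries.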

Additional observations from a re-analysis of the deposited data

Results flagged for a closer look

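In the fit of the 12 liver, lymph node, lung and spleen libraries, 29 genes had a difference between liver and lymph node that was unlike that between lung and spleen (limma, adjusted p under 0.05), which is why they are listed. The values are the first difference minus the second, on the log2(TPM + 1) scale. Both haemoglobin and stress genes were on the positive side, with 7.73 for Hbb-bs, 5.41 for Hspa1a, 5.39 for Hspa1b, 2.06 for Hsph1, 1.49 for Dnajb1 and 1.04 for Hsp90aa1. Il2, Ifng, Ccl5, Tbx21, Tnf and Cxcr3 had 4.36, 4.28, 3.31, 3.00, 1.84 and 1.38. Signal-induced genes had 3.04 (Jun), 2.05 (Rgs16), 1.93 (Nr4a1) and 1.48 (Fosb). On the negative side were the genes of resting cells Satb1 (-2.80) and Ccr7 (-2.17), and the surface and effector genes Tnfrsf9 (-2.60), Lrrc32 (-2.53), Itgae (-2.32), Icos (-1.78), Il10 (-1.63), Il1rl1 (-1.31), Ctla4 (-1.22) and Areg (-0.97). The values of Ramp3, Crem and Fosl2 were -2.65, -1.53 and -1.03. Erythroid markers summed to 10931.8 to 11969.4 TPM in liver, 1425.9 to 1540.0 TPM in lung and 1844.2 to 1986.5 TPM in spleen, and their part in these values was not tested.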

How the results depend on the processing

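Over 17 alternatives no named gene that was called changed direction. Of 143 such genes, 120 kept their call in all alternatives and 23 lost it in at least 1, 9 of these only when a lymph node library was left out. Genes that were not called gained a call in 18 values, namely Batf, Il10, Tnfrsf4, Lrrc32, Tnfrsf18, Hsf1 and Cd4. Counts moved more. Scaling to T cell genes gave 1736 higher and 918 lower genes, and median scaling 1300 lower genes. A fit of all 18 libraries gave 3699 lower genes. The samples were not treated as paired by their replicate numbers. Same-numbered liver and lymph node libraries correlated at 0.006 to 0.032 in their deviations, and other pairs at -0.032 to 0.019. These values cannot settle whether same-numbered libraries shared animals. A replicate block gave 723 higher and 1261 lower genes. Leaving out 1 library gave 508 to 1445 higher and 623 to 3086 lower genes, the lowest without a lymph node library. For lung and spleen, T cell scaling gave 4274 higher and 1141 lower genes, and leaving out 1 library gave 1749 to 2192 higher and 1793 to 2567 lower, of which the 1793 came without spleen replicate 3. The causes of these shifts were not tested. Of 403 values of the difference between the comparisons, 400 kept their side of the threshold, and Lag3 and Bhlhe40 passed in 3 others. The depth of the liver libraries limits statements on genes of low TPM there.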
